A study of Mus musculus with 12 samples.

Results

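The serotonin receptors of the mouse striatum were examined across 4 genotypes. They were taken by gene symbol: of the 14 serotonin receptor genes among the 55487 genes counted, the 12 with at least 10 counts in at least 3 of the 12 libraries were kept. These were Htr1a, Htr1b, Htr1d, Htr1f, Htr2a, Htr2c, Htr3a, Htr4, Htr5a, Htr5b, Htr6 and Htr7. Htr2b had 1 to 13 counts per library and Htr3b had 0 to 7, and neither was tested. The rule reads symbols and count sizes only, and all 12 receptors passed the filter on low counts used for testing.

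Poly(A) RNA from striatal tissue was sequenced with 3 mice in each group. The WT group was C57BL/6J. The HD group was the zQ175 neo-deleted knock-in, a model of Huntington's disease in which the mouse huntingtin gene Htt carries an expanded repeat on 1 allele. The cGAS-KO group lacked cGAS, a sensor of cytosolic DNA encoded by Cgas, and the cGAS-KO;HD group was the double mutant, named Q175DN-cGAS-KO in the study's design. The labels give no age, sex, litter, strain background of the knockout line or dissection batch for these mice. The design asks whether loss of cGAS alters Huntington's disease in the knock-in mouse, so each receptor has 4 levels to compare.

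Serotonin reaches the striatum through axons whose cell bodies lie in the raphe nuclei of the brainstem. The receptor transcripts measured in striatal tissue therefore come from the cells that receive serotonin, whereas transcripts for its synthesis and uptake are made mainly in the raphe. Receptors of the Htr1 class couple to Gi/o proteins and lower cyclic AMP, those of the Htr2 class couple to Gq and release calcium from stores, and Htr4, Htr6 and Htr7 couple to Gs and raise cyclic AMP. Htr3a forms a cation channel. Htr1b, Htr2c, Htr4 and Htr6 are known from GABAergic projection neurons of the striatum, and Htr2c also from the choroid plexus, the tissue that makes cerebrospinal fluid.

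Library totals were 59195327 to 72765623 counts, and levels are given in CPM, the counts of a gene per 1000000 counts of its library, with library sizes scaled by the trimmed mean of M values. The labels were checked on Htt and Cgas. Htt, the knock-in gene, was lower in HD than in WT (log2 change -0.32 ± 0.08 SE, edgeR adjusted p = 0.0389) and lower in cGAS-KO;HD than in cGAS-KO (-0.33 ± 0.08, edgeR adjusted p = 0.03). Cgas was 1.32 to 1.56 CPM in WT and 0.572 to 0.882 CPM in cGAS-KO, but 1.07 to 1.26 CPM in HD and 0.798 to 1.15 CPM in cGAS-KO;HD, which overlap. Cgas was not called in either comparison (edgeR adjusted p = 0.919 and 0.856). The sources used here do not give the deleted exons, so the cGAS genotypes rest on the labels. All 20 markers of striatal projection neurons had counts in the series. WT 1 and cGAS-KO 3 stood apart from the other libraries of their groups: WT 1 had 409.7 CPM summed over 18 cortical markers against 922.8 and 1030 CPM in WT 2 and WT 3, and cGAS-KO 3 had 1514 CPM against 577 and 488 CPM, with 11.5% mitochondrial counts against 5.3 to 9.03% in the other 11 libraries. Results that rest on these libraries are given with and without them. Omitting both together was chosen after seeing the data. The cortical sum of WT 1 lay within the HD range, 405.4 to 560.2 CPM. Fits without WT 1 therefore set the WT libraries with higher cortical sums against HD. Xist was high in 6 libraries and low in 6, split within every group but unevenly. The high ones were WT 1, HD 1, HD 2, cGAS-KO 3, cGAS-KO;HD 2 and cGAS-KO;HD 3, more of them with the knock-in allele than without.

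The receptors with the most transcript in WT striatum, compared per kilobase of exon, were Htr2c, Htr1b and Htr2a. In WT, Htr2c stood at 10.8 ± 1.57 CPM per kb (SD, n = 3), Htr1b at 7.11 ± 1.55 and Htr2a at 4.91 ± 2.06 CPM per kb. Htr7 followed at 4.24 ± 1.29, Htr1a at 3.64 ± 0.505, Htr5a at 3.11 ± 0.465 and Htr1d at 2.12 ± 0.38 CPM per kb. Htr6, Htr1f, Htr3a and Htr4 lay between 1.02 and 1.68 CPM per kb, and Htr5b was lowest at 0.434 ± 0.14. Only 3 neighbours in this WT order were separated in every library: Htr2c above Htr1b, Htr5a above Htr1d, and Htr4 above Htr5b.

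The order differed in the knock-in groups. In HD, Htr2c was 14.8 ± 0.861 CPM per kb, followed by Htr7 at 5.52 ± 1.32 and Htr1b at 3.62 ± 1.07. In cGAS-KO;HD the same 3 receptors led, with 14.8 ± 1.36, 4.38 ± 0.5 and 4.13 ± 0.648 CPM per kb, and Htr7 and Htr1b overlapped in both groups. In cGAS-KO, Htr2c at 11.8 ± 1.54 and Htr1b at 9.84 ± 0.808 CPM per kb overlapped. Htr2a ranked 3 of 12 in WT and cGAS-KO and 6 of 12 in both knock-in groups.

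**Figure D1:**
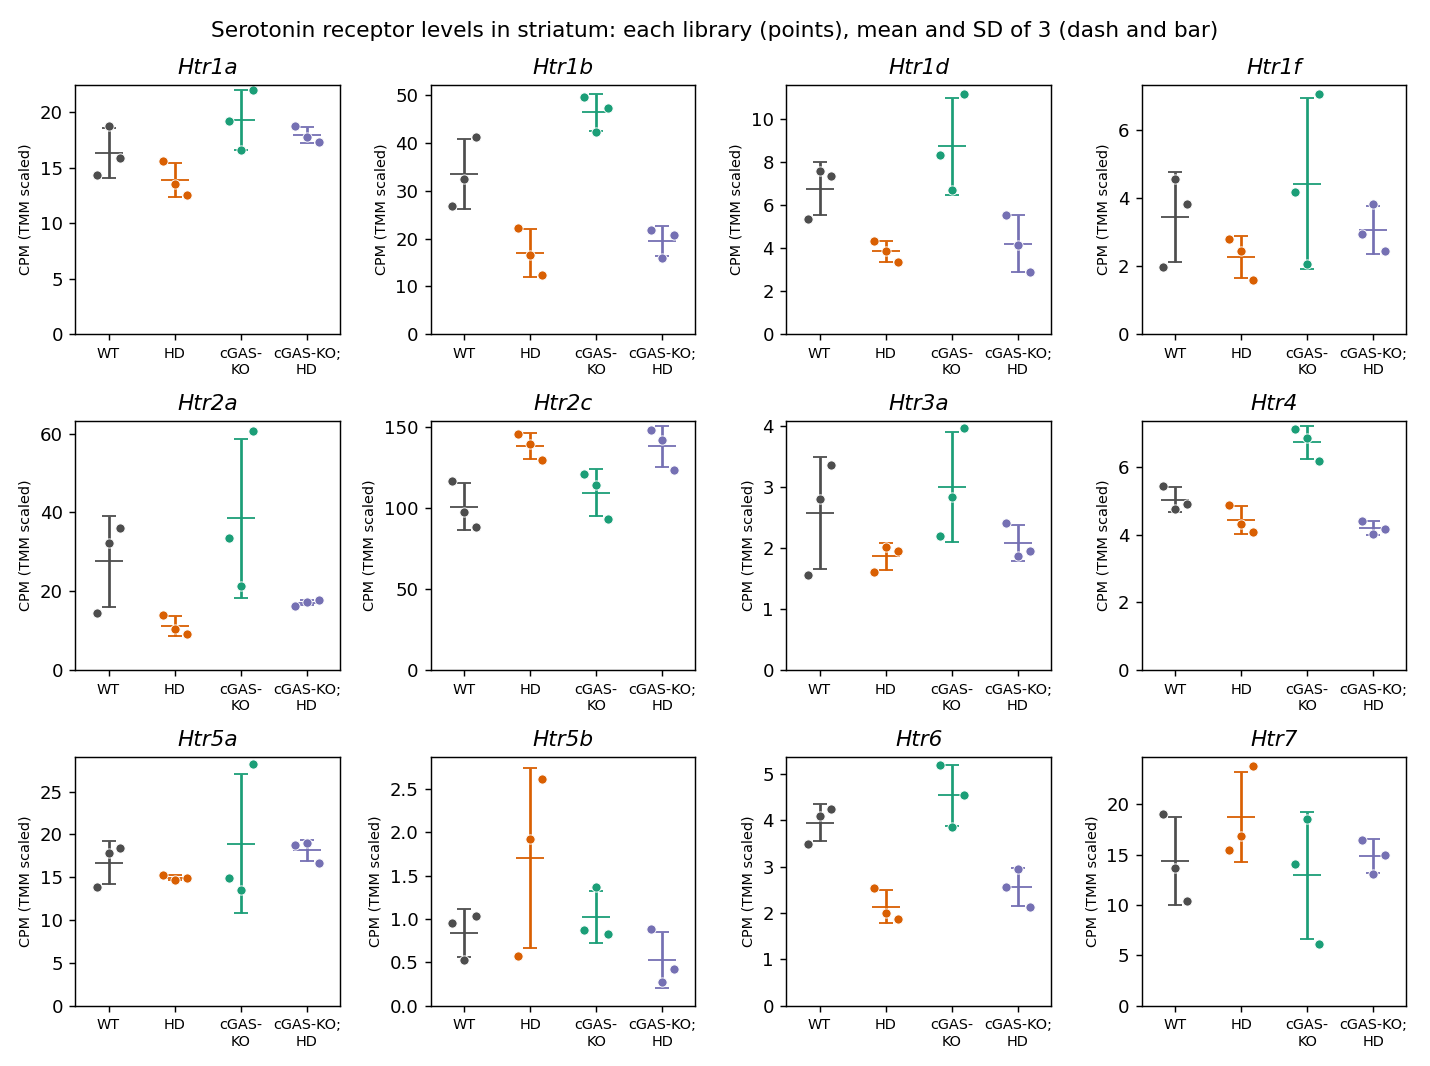
CPM of the 12 serotonin receptors by group, 1 panel per receptor with its own linear axis from 0; points are libraries, and the dash and bar give the mean and SD of 3. Htr1b and Htr6 are lower in all 6 knock-in libraries than in all 6 others.

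Of the 12 receptors, 5 fell and 1 rose with the knock-in allele when the effect was averaged over both cGAS genotypes, 6 libraries against 6. Htr1b, Htr1d, Htr2a, Htr4 and Htr6 fell and Htr2c rose, by edgeR's quasi-likelihood test at an adjusted p under 0.05. The share of all 21309 tested genes called in this comparison was 13.2%, with 5.59% higher and 7.63% lower. The median log2 change was -0.47 over the 12 receptors and 0.01 over all tested genes. Fewer cells of a type and less RNA per cell cannot be told apart in bulk tissue.

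The promoters of Htr1b, Htr1d and Htr6, which fell, and of Htr2c, which rose, are shown. Of the other receptors that fell, the promoter of Htr4 was not examined. Htr2a has a matched promoter that is not printed, with 1 GC box, no CCAAT box and a GC content of 52%. The printed promoters run from 250 bases before to 50 bases after the RefSeq start (build GRCm38.p6). Capitals mark matches on either strand to the GC box, searched as GGGCGG, a motif read by Sp1 factors, and to the box named for its letters CCAAT, read by NF-Y; a match on the other strand shows as the reverse complement, and adjoining matches merge into 1 run of capitals. Among the receptors examined, which leave out Htr4, promoter entries matched 9.
Htr1b, chr9:81633783-81634082, minus strand: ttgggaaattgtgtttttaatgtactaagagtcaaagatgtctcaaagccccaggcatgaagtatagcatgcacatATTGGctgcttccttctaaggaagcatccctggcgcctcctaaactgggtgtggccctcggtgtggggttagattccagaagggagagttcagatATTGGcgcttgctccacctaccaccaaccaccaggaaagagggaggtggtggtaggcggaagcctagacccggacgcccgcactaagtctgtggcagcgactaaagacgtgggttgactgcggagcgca
Htr1d, chr4:136423274-136423573, plus strand: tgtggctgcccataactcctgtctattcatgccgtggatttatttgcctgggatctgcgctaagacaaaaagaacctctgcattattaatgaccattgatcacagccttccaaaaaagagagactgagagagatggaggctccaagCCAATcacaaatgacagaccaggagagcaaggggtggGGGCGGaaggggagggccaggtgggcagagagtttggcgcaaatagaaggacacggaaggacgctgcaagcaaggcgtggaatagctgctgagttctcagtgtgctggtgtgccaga
Htr6, chr4:139075521-139075820, minus strand: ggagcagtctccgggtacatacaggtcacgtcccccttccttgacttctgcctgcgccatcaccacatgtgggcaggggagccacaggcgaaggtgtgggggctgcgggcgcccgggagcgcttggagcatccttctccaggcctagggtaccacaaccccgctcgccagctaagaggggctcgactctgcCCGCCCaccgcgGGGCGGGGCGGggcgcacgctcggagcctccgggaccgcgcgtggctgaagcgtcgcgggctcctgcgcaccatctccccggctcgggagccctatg
Htr2c, chrX:146962263-146962562, plus strand: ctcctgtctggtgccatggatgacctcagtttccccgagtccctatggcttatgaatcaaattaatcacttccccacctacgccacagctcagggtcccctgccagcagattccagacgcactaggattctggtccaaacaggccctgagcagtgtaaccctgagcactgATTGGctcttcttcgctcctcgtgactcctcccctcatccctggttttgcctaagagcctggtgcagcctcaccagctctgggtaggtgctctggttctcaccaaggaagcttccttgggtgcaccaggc
No element was held by all 4 promoters read from receptors that fell. Beside Htr2a, with 1 GC box, Htr1b holds 2 CCAAT boxes and no GC box, Htr1d holds 1 of each, and Htr6 holds 3 GC boxes and no CCAAT box. The Htr2c promoter holds 1 CCAAT box. Among 32851 mouse promoters of 300 bases, 35.7% hold a GC box and 37.4% a CCAAT box, so each element is common. GC content was 53.3% for Htr1b, 52% for Htr1d, 71% for Htr6 and 56.3% for Htr2c. None of the 4 printed promoters holds TATAAA (13.6% of all promoters) or TGACGTCA, the core of the cyclic AMP response element (1.79%), on either strand.

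Htr1b encodes a Gi/o-coupled receptor on axon terminals, where it limits transmitter release (gene ENSMUSG00000049511, chr9:81628291-81633828, minus strand, 2 exon blocks). Its level was 26.9, 32.5 and 41.4 CPM in the WT libraries, 22.3, 16.6 and 12.3 CPM in HD, 49.8, 42.3 and 47.4 CPM in cGAS-KO, and 21.8, 16 and 20.7 CPM in cGAS-KO;HD. Every knock-in library was below every library without the allele, and the highest knock-in value, 22.3 CPM in HD 1, was closest to WT 1. Htr1b was lower by a log2 change of -1.11 ± 0.15 (SE) averaged over the cGAS genotypes (edgeR adjusted p = 0.000478). Its exons share 852 of 4724 bases with D430036J16Rik on the opposite strand, which was 9.21 ± 2.17 CPM in WT and 4.89 ± 1.41 CPM in HD (SD, n = 3). The library kit keeps strand, but no label says whether the counting used it, and the part of this overlap in the Htr1b change was not tested.

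Htr1d, the close relative of Htr1b and likewise an inhibitory autoreceptor and heteroreceptor (ENSMUSG00000070687, chr4:136423524-136444398, plus strand), was less abundant and changed the same way. It was 5.38, 7.59 and 7.36 CPM in WT, 4.34, 3.86 and 3.37 CPM in HD, 8.33, 6.69 and 11.2 CPM in cGAS-KO, and 5.55, 4.13 and 2.91 CPM in cGAS-KO;HD. The groups did not overlap within either cGAS genotype, although 5.55 CPM in cGAS-KO;HD 1 was above 5.38 CPM in WT 1. The averaged log2 change of Htr1d was -0.93 ± 0.17 (edgeR adjusted p = 0.0036).

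The other Htr1 receptors did not pass the test. Htr1a, the main somatodendritic receptor of this class, was 14.3 to 18.8 CPM in WT, 12.6 to 15.6 CPM in HD, 16.6 to 22 CPM in cGAS-KO and 17.3 to 18.8 CPM in cGAS-KO;HD (averaged knock-in log2 change -0.17 ± 0.09, edgeR adjusted p = 0.258). Htr1f was 1.96 to 4.54 CPM in WT and 1.57 to 2.79 CPM in HD, with overlap (-0.56 ± 0.29, edgeR adjusted p = 0.24). The summed level of the 4 Htr1 genes was 14.2 ± 2.53 CPM per kb in WT and 18.6 ± 2.84 in cGAS-KO, against 8.8 ± 1.79 in HD and 10.6 ± 0.896 in cGAS-KO;HD (SD, n = 3), and most of each gap came from Htr1b.

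Htr6, a Gs-coupled receptor enriched in striatal projection neurons (ENSMUSG00000028747, chr4:139061108-139075570, minus strand), fell in both cGAS backgrounds. It was 3.49, 4.09 and 4.24 CPM in WT, 2.53, 2 and 1.88 CPM in HD, 5.19, 3.86 and 4.55 CPM in cGAS-KO, and 2.56, 2.96 and 2.14 CPM in cGAS-KO;HD. No knock-in library reached the lowest value without the allele, 3.49 CPM in WT 1. The averaged log2 change was -0.86 ± 0.13 (edgeR adjusted p = 0.001).

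Htr4, the other low-abundance Gs-coupled receptor (ENSMUSG00000026322), was 5.45, 4.74 and 4.9 CPM in WT and 4.87, 4.33 and 4.08 CPM in HD, which overlap. It was 7.13, 6.85 and 6.19 CPM in cGAS-KO and 4.42, 4.01 and 4.16 CPM in cGAS-KO;HD, which do not. Its averaged knock-in change was -0.43 ± 0.09 (edgeR adjusted p = 0.00712), from -0.19 ± 0.13 with cGAS (edgeR adjusted p = 0.478) and -0.68 ± 0.13 without it (edgeR adjusted p = 0.0103). The difference between these changes, the interaction, was -0.50 ± 0.18 with an unadjusted p of 0.0162 and an edgeR adjusted p of 1, so a dependence on cGAS was not called for Htr4.

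Htr7, the Gs-coupled receptor abundant in the thalamus, was 19.1, 13.7 and 10.4 CPM in WT, 15.5, 16.9 and 23.9 CPM in HD, 14.1, 18.5 and 6.17 CPM in cGAS-KO, and 16.5, 13.1 and 15 CPM in cGAS-KO;HD. All groups overlapped, and the averaged change was 0.29 ± 0.24 (edgeR adjusted p = 0.493). Its order over the libraries was close to that of 10 markers of thalamus, septum and pallidum, each with counts in the series. Their summed level was 825, 491 and 349 CPM in WT and 651, 839 and 1124 CPM in HD. It was 476, 798 and 285 CPM in cGAS-KO, and 699, 483 and 575 CPM in cGAS-KO;HD. Htr7 was lowest in cGAS-KO 3 and highest in HD 3, as was this sum. None of the 10 markers was called in the averaged comparison, and the part of these regions in the Htr7 values was not tested.

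Htr2c, a Gq-coupled receptor whose transcript is edited in brain (ENSMUSG00000041380, chrX:146962513-147197277, plus strand), was the receptor that rose. It was 117, 97.7 and 88.2 CPM in WT, 146, 140 and 130 CPM in HD, 121, 115 and 93.5 CPM in cGAS-KO, and 148, 142 and 124 CPM in cGAS-KO;HD. All 6 knock-in libraries were above all 6 others, as for Htr1b and Htr6 in the opposite direction and for 7.49% of all genes in either direction, the nearest being 124 CPM in cGAS-KO;HD 3 and 121 CPM in cGAS-KO 1. The averaged log2 change was 0.40 ± 0.08 (edgeR adjusted p = 0.00776).

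Choroid plexus markers varied widely between libraries beside Htr2c. Their sum over 12 genes, each with counts in the series, was 2060 CPM in WT 1. It was 169 and 93.9 CPM in WT 2 and WT 3, and 977, 2155 and 321 CPM in HD. In cGAS-KO it was 913, 998 and 254 CPM, and in cGAS-KO;HD 1230, 1295 and 136 CPM. None of the 12 was called in the averaged comparison. Their log2 changes had SEs from 0.32 (Otx2) to 1.05 (Ttr), too wide to show equal amounts of choroid plexus. Among the libraries with the lowest sums, Htr2c was 130 CPM in HD 3 and 124 CPM in cGAS-KO;HD 3, above 97.7, 88.2 and 93.5 CPM in WT 2, WT 3 and cGAS-KO 3. These sums were not matched, and that of HD 3 was the highest among them. In each of the 4 groups the library with the lowest sum was replicate 3, which also had the lowest Htr2c. Pearson's r between log2 Htr2c and the log2 sum was 0.687 over all libraries and 0.891 for deviations from group means. The part of choroid plexus tissue in the group difference was not tested beyond these values.

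Htr2a, the other Gq-coupled receptor and one abundant in cortex (ENSMUSG00000034997, chr14:74640840-74709494, plus strand), was 14.4, 32.2 and 36 CPM in WT, 13.9, 10.5 and 9.01 CPM in HD, 33.4, 21.3 and 60.6 CPM in cGAS-KO, and 16.3, 17.3 and 17.7 CPM in cGAS-KO;HD. The groups did not overlap within either cGAS genotype, but the gap between WT 1 and HD 1 was small and cGAS-KO 3 was far above its group. Averaged over cGAS genotypes, Htr2a fell, with a log2 change of -1.24 ± 0.28 (edgeR adjusted p = 0.0157) and a 95% interval from -1.86 to -0.62. The change was -1.16 without WT 1 and cGAS-KO 3 together (edgeR adjusted p = 0.000428). In the same fit the change was -1.63 in HD against WT and -0.68 in cGAS-KO;HD against cGAS-KO. There the averaged comparison called 4595 of 21724 genes, against 2816 with all libraries. This omission was chosen after seeing the data and removes the Htr2a values far from the rest of their groups. Its smaller p is therefore no further support. The 2 libraries that stood apart were also those whose cortical marker sums were far from the rest of their groups. Of the 18 cortical markers, each with counts in the series, 4 fell and 1 rose in the averaged comparison. Their median log2 change was -1.14, against 0.01 over all genes, and 12 had an unadjusted edgeR p under 0.05. Their sum was 410 to 1030 CPM in WT and 405 to 560 CPM in HD. It was 488 to 1514 CPM in cGAS-KO and 477 to 551 CPM in cGAS-KO;HD. A list for claustrum and deep cortex lay closer to Htr2a by Pearson's r of log2 values, 0.986, and 0.97 for deviations from group means. For the cortical list these were 0.818 and 0.849. Of 7 tested claustrum and deep cortex markers, 3 fell and 1 rose in the averaged comparison, with a median of -0.63. Of all tested genes, 7.63% fell and 5.59% rose. The part of cortical or claustral tissue in the Htr2a change was not tested.

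The remaining receptors were not called with all 12 libraries. Htr3a, the channel subunit, was 1.56 to 3.36 CPM in WT, 1.61 to 2.02 CPM in HD, 2.19 to 3.97 CPM in cGAS-KO and 1.88 to 2.42 CPM in cGAS-KO;HD (averaged log2 change -0.50 ± 0.20, edgeR adjusted p = 0.12). Htr5a was 13.8 to 18.4 CPM in WT, 14.7 to 15.2 in HD, 13.5 to 28.2 in cGAS-KO and 16.7 to 18.9 CPM in cGAS-KO;HD (-0.11 ± 0.16, edgeR adjusted p = 0.715). Htr5b, the least abundant, was 0.951, 0.531 and 1.04 CPM in WT, 0.574, 1.93 and 2.62 CPM in HD, 0.877, 1.37 and 0.831 CPM in cGAS-KO, and 0.889, 0.27 and 0.427 CPM in cGAS-KO;HD (0.03 ± 0.38, edgeR adjusted p = 0.974). Its 2 high libraries were both HD, and HD 1 lay within the WT range. Htr3a passed the test in the averaged comparison without WT 1 (-0.64, adjusted p = 0.0199) and without WT 1 and cGAS-KO 3 together (-0.51, adjusted p = 0.0213), and in HD against WT without both (-0.74, adjusted p = 0.0228). Htr5a passed without both libraries in HD against WT (-0.29, adjusted p = 0.0375) and, with the opposite sign, in cGAS-KO;HD against cGAS-KO (0.34, adjusted p = 0.0313).

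**Figure D2:**
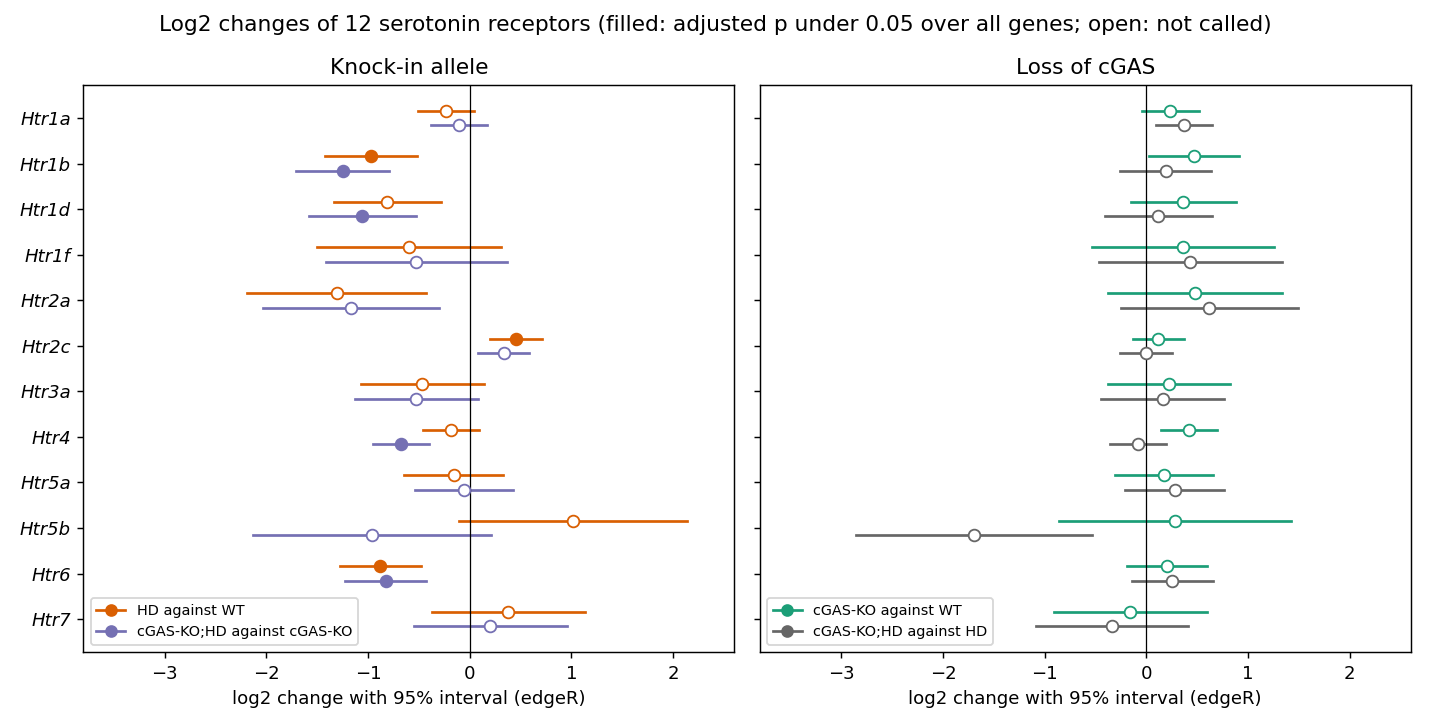
Log2 change of each of the 12 receptors with its 95% interval, for the knock-in effect with and without cGAS (left) and for the loss of cGAS without and with the knock-in allele (right); filled points passed an edgeR adjusted p under 0.05. Htr1b and Htr6 are filled in both knock-in comparisons, and no point is filled for the loss of cGAS.

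In HD against WT alone, Htr1b (log2 change -0.98 ± 0.21, edgeR adjusted p = 0.0226) and Htr6 (-0.88 ± 0.18, edgeR adjusted p = 0.0186) fell and Htr2c rose (0.46 ± 0.12, edgeR adjusted p = 0.0479). These 3 of 12 stand beside 4.1% of all genes called, 1.43% higher and 2.67% lower, and the 5 receptors whose libraries did not overlap (Htr2c higher, Htr1b, Htr1d, Htr2a and Htr6 lower) stand beside 27.7% of all genes. Htr1d (-0.81 ± 0.24, edgeR adjusted p = 0.0862) and Htr2a (-1.31 ± 0.40, edgeR adjusted p = 0.102) were not called. The count depended on single libraries: it was 5 without WT 1, 2 without HD 1, and 0 without WT 2, WT 3, HD 2 or HD 3, and 7 without WT 1 and cGAS-KO 3 together, when Htr1d, Htr2a, Htr3a and Htr5a were also called. In the same fits the number called among all genes was 1532 without WT 1, against 873 with all libraries. It was 717 without HD 1 and 247 to 324 without WT 2, WT 3, HD 2 or HD 3. Without WT 1 and cGAS-KO 3 together it was 3589 of 21724.

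In cGAS-KO;HD against cGAS-KO, which shares no library with the comparison above, 4 of 12 receptors fell, beside 3.96% of all genes called, 1.44% higher and 2.52% lower. These were Htr1b (-1.25 ± 0.21, edgeR adjusted p = 0.00612), Htr4 (-0.68 ± 0.13, edgeR adjusted p = 0.0103), Htr6 (-0.83 ± 0.18, edgeR adjusted p = 0.0252) and Htr1d (-1.06 ± 0.24, edgeR adjusted p = 0.0295). Libraries did not overlap for 6 receptors, these 4 and Htr2a lower and Htr2c higher, beside 21.5% of all genes. Htr2c was 0.33 ± 0.12 (edgeR adjusted p = 0.148) and Htr2a was -1.17 ± 0.39 (edgeR adjusted p = 0.143). The count was 1 without cGAS-KO 1, 2 without cGAS-KO;HD 2 and 2 without cGAS-KO;HD 3. In these fits 386, 321 and 475 of all genes were called, against 843 with all libraries. Without cGAS-KO 3, Htr1d was not called (edgeR adjusted p = 0.0538), beside 1089 genes called. Without WT 1 and cGAS-KO 3 together, Htr1b, Htr1d, Htr4, Htr5a and Htr6 were called, beside 1805 of 21724 genes. Htr1b was called in all 15 alternative fits of this comparison.

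Loss of cGAS was not followed by a called change in any receptor, in either background or averaged. These comparisons share the WT or the HD libraries with the knock-in comparison above, so their changes are not independent of it. In cGAS-KO against WT, 0 of 12 were called by edgeR, DESeq2 or limma-voom, beside 0% of all genes by edgeR, and 2 had an unadjusted p under 0.05: Htr4 (0.42 ± 0.13, edgeR adjusted p = 0.919) and Htr1b (0.47 ± 0.21, edgeR adjusted p = 0.919). Both were also the receptors whose cGAS-KO libraries were all above the WT libraries, beside 8.79% of all genes. The 95% intervals were 0.14 to 0.69 for Htr4 and 0.02 to 0.91 for Htr1b. With 11 of 12 receptors above 0, the median was 0.26 against 0.00 over all genes; without WT 1 and cGAS-KO 3 together, Htr1f (-0.43), Htr2a (-0.32), Htr3a (-0.29) and Htr5a (-0.35) were below 0 and Htr7 (0.44) was above.

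In cGAS-KO;HD against HD, 0 of 12 were called by the same 3 tools, beside 0.00469% of all genes by edgeR, and 2 had an unadjusted p under 0.05. These were Htr1a (0.37 ± 0.13) and Htr5b (-1.69 ± 0.53), each with an edgeR adjusted p of 0.757. Libraries of cGAS-KO;HD were all above those of HD for Htr1a, Htr2a and Htr5a, beside 17.1% of all genes. Htr2a was 16.3 to 17.7 CPM against 9.01 to 13.9 CPM, a change of 0.62 ± 0.39 (95% interval -0.25 to 1.49, edgeR adjusted p = 0.757). For Htr2c, the interval of the difference was -0.26 to 0.25.

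The interaction asks whether the knock-in effect itself differed with cGAS lost, and called 0 of 12 receptors by the 3 tools, beside 0.00469% of all genes by edgeR. Only Htr4 and Htr5b (-1.98 ± 0.75) had an unadjusted p under 0.05, and every edgeR adjusted p was 1. For Htr1b the interaction was -0.28 ± 0.29 with a 95% interval from -0.91 to 0.36, and for Htr2c it was -0.12 ± 0.17 (-0.48 to 0.24). Averaged over both backgrounds, loss of cGAS called 0 of 12 receptors beside 0% of all genes, and 2 had an unadjusted p under 0.05: Htr1a (0.30 ± 0.09, edgeR adjusted p = 0.564) and Htr1b (0.33 ± 0.15, edgeR adjusted p = 0.564).

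The make-up of the receptor transcripts was read as the share of each receptor in their summed CPM per kb. The sum itself was 41.7 ± 2.78 CPM per kb in WT and 49.8 ± 4.96 in cGAS-KO, against 37.5 ± 1.57 in HD and 39.5 ± 2.76 in cGAS-KO;HD (SD, n = 3). Htr2c made up 21.8 to 32.6% of it in WT and 18.4 to 27.5% in cGAS-KO, but 38.4 to 40.5% in HD and 35.9 to 39.1% in cGAS-KO;HD. The Htr1 class was 29.4 to 37% in WT and 34.8 to 38.7% in cGAS-KO, against 19.5 to 27.1% in HD and 26 to 27.5% in cGAS-KO;HD. Neither range in the knock-in groups overlapped that in the other groups. The ratio of Htr2c to Htr1b in CPM was 2.13 to 4.35 in WT, 1.97 to 2.71 in cGAS-KO, 6.53 to 10.6 in HD and 5.97 to 8.88 in cGAS-KO;HD. The Htr2 class as a sum was 15.7 ± 0.578 CPM per kb in WT and 16.8 ± 1.29 in HD, since Htr2c and Htr2a moved in opposite directions.

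**Figure D3:**
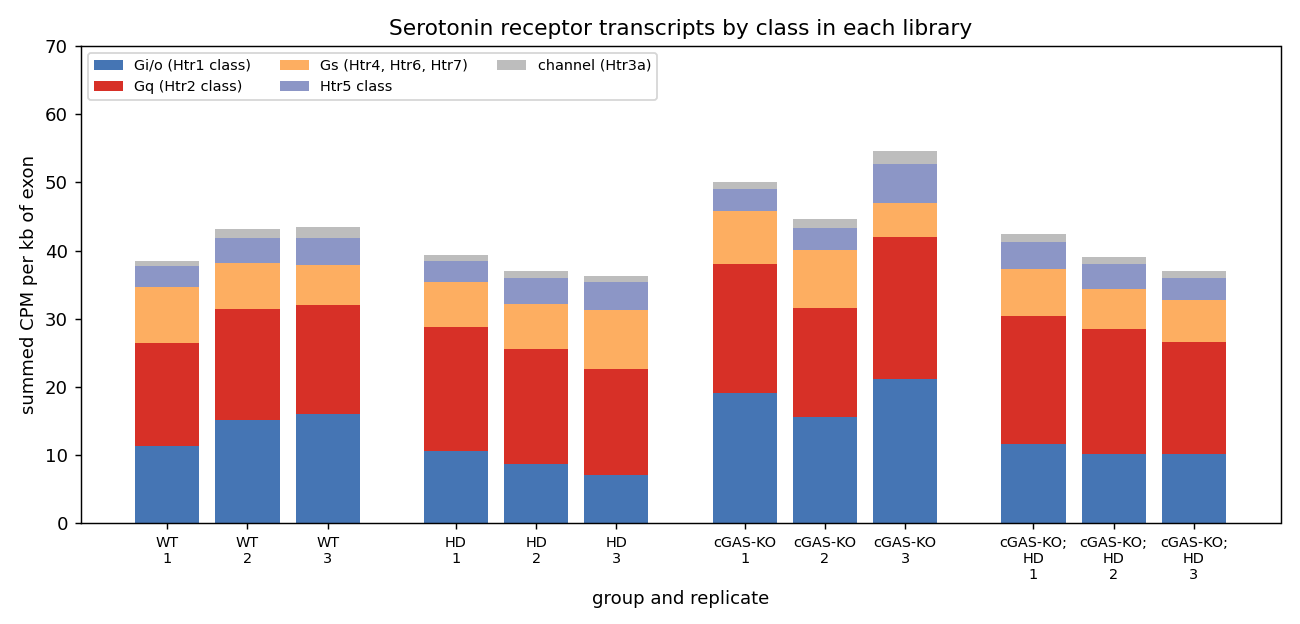
Summed CPM per kb of exon of the receptors in each library, stacked by the G protein or channel class they act through. The Htr1 class is 11.3 to 21.1 CPM per kb in the 6 libraries without the knock-in allele and 7.07 to 11.7 in the 6 with it.

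Receptors that fell with the knock-in allele did so beside the markers of striatal projection neurons, of which 19 of 20 fell in the averaged comparison. The summed level of the 20 markers was 4847 to 6832 CPM in WT and 6075 to 7387 CPM in cGAS-KO, against 1811 to 3375 CPM in HD and 2957 to 3062 CPM in cGAS-KO;HD. Htr1b per 1000 CPM of this sum was 5.47 to 6.05 CPM in WT, 6.44 to 6.79 in HD, 6.69 to 6.96 in cGAS-KO and 5.24 to 7.27 CPM in cGAS-KO;HD. By this ratio every HD library was above every WT library, and the 2 groups without cGAS overlapped. Htr6 per 1000 CPM was 0.621 to 0.72 CPM in WT and 0.751 to 1.04 CPM in HD, and the knock-in range was also above the other without cGAS (0.723 to 0.966 against 0.636 to 0.703 CPM). Htr1d was 1.08 to 1.28 CPM in WT and 1.29 to 1.86 CPM in HD. It overlapped between cGAS-KO, at 1.1 to 1.58 CPM, and cGAS-KO;HD, at 0.983 to 1.85 CPM. Htr4 was 0.7165 to 1.125 CPM in WT and 1.444 to 2.25 CPM in HD. Without cGAS it was 0.8742 to 1.128 CPM and, with the knock-in allele, 1.309 to 1.473 CPM. Htr2a overlapped between WT, at 2.97 to 5.43 CPM, and HD, at 4.056 to 4.975 CPM. It also overlapped between cGAS-KO, at 3.502 to 8.563 CPM, and cGAS-KO;HD, at 5.442 to 5.97 CPM. For Htr2c the same ratio was 12.9 to 24.1 CPM in WT, 43.2 to 71.8 in HD, 13.2 to 18.9 in cGAS-KO and 41.9 to 49.4 CPM in cGAS-KO;HD. Htr1a, Htr5a and Htr7, not called with all libraries, also had higher ratios in both knock-in groups. Htr1a was 2.327 to 3.163 CPM in WT and 4.623 to 6.932 CPM in HD. It was 2.606 to 3.104 CPM in cGAS-KO and 5.811 to 6.263 CPM in cGAS-KO;HD. Htr5a was 2.691 to 3.011 CPM in WT and 4.511 to 8.225 CPM in HD. It was 2.022 to 3.983 CPM in cGAS-KO and 5.643 to 6.263 CPM in cGAS-KO;HD. Htr7 was 1.529 to 3.941 CPM in WT and 4.594 to 13.18 CPM in HD. It was 0.8718 to 3.052 CPM in cGAS-KO and 4.285 to 5.51 CPM in cGAS-KO;HD. Such a ratio rises wherever the marker sum falls more than the receptor. The ratios are descriptions with no test. A loss of projection neurons and a lower output of each cell cannot be told apart from them.

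**Figure D4:**
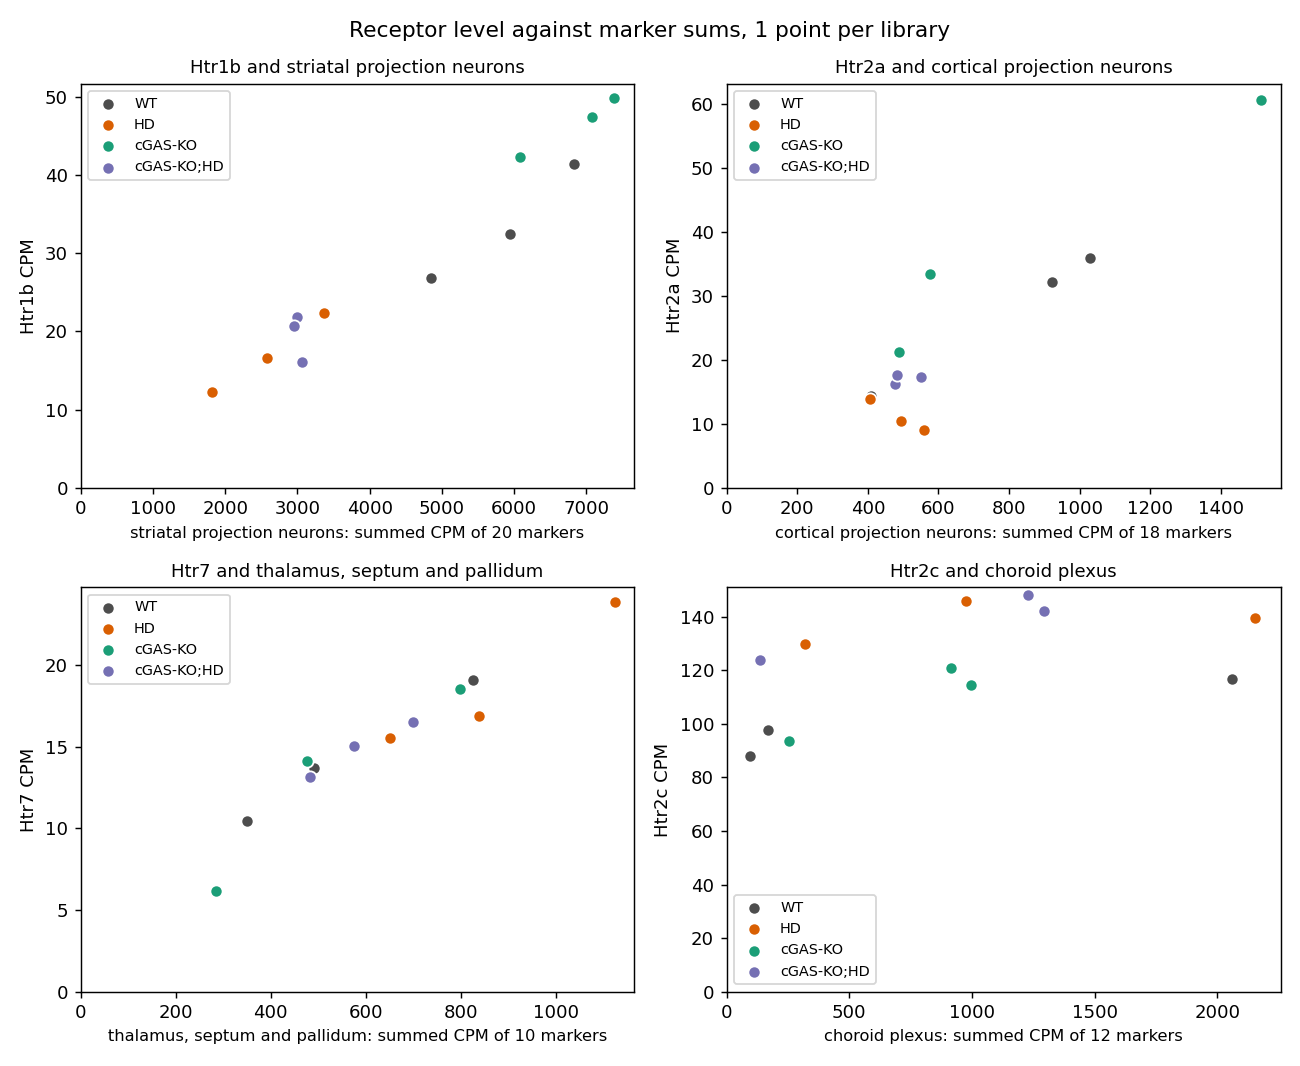
Receptor CPM in each library against the summed CPM of a marker list, with Htr1b beside striatal projection neuron markers, Htr2a beside cortical markers, Htr7 beside markers of thalamus, septum and pallidum, and Htr2c beside choroid plexus markers; colours are groups. Htr1b lies low where the projection neuron sum is low. Over choroid plexus sums from 136 to 2155 CPM, Htr2c is 124 to 148 CPM in the 6 knock-in libraries. In the 6 others it is 88.2 to 121 CPM.

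For each receptor with a mean of at least 1 CPM, the genes with the closest pattern were found by Pearson's r of log2 CPM over the 12 libraries, which share group, depth and dissection. The nearest to Htr1b were Pde7b (r = 0.984, and 0.911 for deviations from group means) and Tle1 (0.982 and 0.933), with ENSMUSG00000118401 (0.982 and 0.883). The nearest to Htr6 were Gm10754 (0.982), Pdzd2 (0.977) and Spata13 (0.976), and the nearest to Htr1d were Arglu1 (0.993), Ajap1 (0.971) and Melk (0.964). Htr2a lay nearest to Erc2 (0.993), Kctd16 (0.99) and A830018L16Rik (0.988), and Htr5a nearest to Zeb2 (0.985), Sept8 (0.979) and R3hdm2 (0.978). Htr1f lay nearest to Cdkl4 (0.975), Mfap3l (0.965) and Exoc6 (0.961), and Htr1a nearest to Atp8a1 (0.964), Myo9a (0.947) and D430020J02Rik (0.939). For Htr3a the genes were Jdp2 (0.926), Gm9899 (0.917) and Uvrag (0.917), and for Htr5b they were Shisa6 (0.882), Kitl (0.872) and Sh3bgrl2 (0.867). Htr7 lay nearest to Cckar (0.981), Calb2 (0.98) and Gbx2 (0.976). Calb2 is in the list for thalamus, septum and pallidum and in that for GABA interneurons, and Gbx2 is in the list for cholinergic interneurons. Htr2c lay nearest to Nkap (0.972), Suco (0.967) and Scn9a (0.965). Htr4 lay nearest to Slc22a3 (0.931), an uptake carrier for monoamines, for which r was 0.456 for deviations from group means, Gm44593 (0.93) and Gm43185 (0.922). Among the receptors, Htr1b and Htr6 had r = 0.92, but 0.483 for deviations from group means. Htr7 ran against Htr2a (-0.854), Htr5a (-0.877) and Htr1f (-0.912), with -0.914, -0.904 and -0.883 for deviations from group means.

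Downstream of the Gs-coupled receptors, 10 of 24 pathway genes fell and 1 rose in the averaged comparison, with a median of -0.16; of all tested genes, 7.63% fell and 5.59% rose. Pde10a (-1.59 ± 0.13, edgeR adjusted p = 1.82e-05) and Pde1b (-1.15 ± 0.11, edgeR adjusted p = 2.7e-05), which break down cyclic nucleotides, fell together with Adcy5 (-1.05 ± 0.10, edgeR adjusted p = 4.1e-05), the main striatal adenylyl cyclase, and Ppp1r1b (-1.26 ± 0.16, edgeR adjusted p = 0.000419), the protein phosphatase inhibitor DARPP. Of these, Pde10a, Adcy5 and Ppp1r1b are also in the projection neuron marker list.

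Of 19 genes on the Gi/o side, 4 fell and 1 rose, beside 7.63% and 5.59% of all genes, with a median of -0.13. Those that fell included Rgs14 (-1.32 ± 0.12, edgeR adjusted p = 2.33e-05), Rgs9 (-1.36 ± 0.13, edgeR adjusted p = 4.27e-05) and Rgs4 (-0.88 ± 0.10, edgeR adjusted p = 0.00012), all of which speed the shut-off of G proteins. Rgs9 is also 1 of the 20 projection neuron markers. The Gi subunit Gnai2 rose (0.19 ± 0.05, edgeR adjusted p = 0.0342). Htr1b and Htr1d, which signal through this class of G protein, fell in the same comparison.

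Of 21 genes on the Gq side, 7 fell and 2 rose, beside 7.63% and 5.59% of all genes, with a median of -0.14. Prkcb (-0.83 ± 0.11, edgeR adjusted p = 0.000504), a protein kinase C, Itpr1 (-0.83 ± 0.12, edgeR adjusted p = 0.00084), the calcium release channel opened by IP3, and Dgkz (-0.69 ± 0.15, edgeR adjusted p = 0.00929) fell. Pla2g4a, which frees arachidonic acid, rose (1.11 ± 0.10, edgeR adjusted p = 2.77e-05). Of the 2 receptors that signal through this pathway, Htr2c rose and Htr2a fell in the same comparison.

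Among 20 tested receptor partners, 3 fell and 1 rose, with a median of -0.04. These 4 of 20 lie near the 13.2% called among all genes. Dlg4, the scaffold PSD-95 (-0.48 ± 0.07, edgeR adjusted p = 0.000811), S100a10, the p11 partner of Htr1b and Htr4 (-0.31 ± 0.09, edgeR adjusted p = 0.0289), and Arrb1 (-0.20 ± 0.06, edgeR adjusted p = 0.0472) fell. Mpdz, a multi-PDZ partner of Htr2c, rose (0.24 ± 0.05, edgeR adjusted p = 0.00852). The enzymes that edit Htr2c RNA, Adar and Adarb1, were not called.

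Of 14 tested genes for serotonin synthesis, storage, uptake and breakdown, 2 rose and 1 fell, with a median of 0.27. These 3 of 14 lie near the 13.2% called among all genes. Ddc, the decarboxylase shared by serotonin and dopamine synthesis (0.61 ± 0.16, edgeR adjusted p = 0.029), and Maoa, which breaks serotonin down (0.26 ± 0.08, edgeR adjusted p = 0.0485), rose, and Slc22a3 fell (-0.46 ± 0.09, edgeR adjusted p = 0.00513). Transcripts that define serotonergic neurons were near the detection limit: Tph2, the brain's serotonin-forming hydroxylase, had 18 to 47 counts per library, the serotonin transporter Slc6a4 had 0 to 13 and Fev had 0 to 16. No gene of these 5 pathway lists was called in a comparison of cGAS genotypes or in the interaction.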

How the data were processed

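Striatal poly(A) RNA of 12 mice, 3 per group, was sequenced from directional libraries, per the labels' protocols. The authors deposited raw counts per Ensembl gene; the aligner, genome build, annotation and strand setting were not given in the sources used here. Symbols and exon lengths came from GENCODE M21 on GRCm38, and promoters from RefSeq on GRCm38.p6. Counts were scaled by TMM and filtered with edgeR's filterByExpr (10 counts, total 15), which kept 21309 genes. All genes were fitted with edgeR's robust quasi-likelihood test (4.0.16, R 4.3.3; 8 residual degrees of freedom) with 1 mean per group. p-values were Benjamini-Hochberg adjusted over all genes and called under 0.05. DESeq2 1.42.0, limma-voom (limma 3.58.1), other scalings and filters, a replicate block, Xist class as a covariate, the compared groups alone and the omission of each library were alternatives; omitting WT 1 and cGAS-KO 3 together was chosen after seeing the data. Fitting was tested on simulated data. Named genes were every receptor, up to 4 called genes per pathway list by smallest p, and for each receptor of at least 1 CPM the 3 genes of highest r. The receptors and lists were chosen with earlier results of these data known. Libraries held 59195327 to 72765623 counts.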

Additional observations from a re-analysis of the deposited data

How the results depend on the processing

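In the comparison averaged over cGAS genotypes, the same 6 receptors were called in 17 of 20 alternatives, and Htr1b, Htr1d, Htr2c, Htr4 and Htr6 in all 20; Htr2a was lost without the low-count filter (adjusted p = 0.054). In HD against WT the 3 calls became 5 with DESeq2's Wald test, beside 1801 of all genes called. They became 7 without WT 1 and cGAS-KO 3 together, beside 3589 of all genes, and 0 to 5 with single libraries left out. There, Htr1b was lost without the low-count filter (adjusted p = 0.0537) and with the compared groups alone (0.0936), and Htr2c with Xist class as a covariate (0.0773) and with the filter of at least 1 CPM in 3 libraries (0.0577). In cGAS-KO;HD against cGAS-KO the 4 calls became 1, Htr1b, with the compared groups alone, and 1 to 4 with single libraries left out. Without WT 1 and cGAS-KO 3 together, Htr5a turned from -0.06 to 0.34 in that comparison (edgeR adjusted p = 0.0313). In that fit Htr5a was the 1 receptor called in the interaction (edgeR adjusted p = 0.04), beside 105 of 21724 genes. The cause was not tested. Over 15257 genes, same-numbered libraries were not more alike. Deviations from group means had a median correlation of -0.107 in 18 same-numbered pairs and 0.063 in 36 others. Htr2c, however, was highest in replicate 1 and lowest in replicate 3 of every group. The replicate block lowered its SE from 0.117 to 0.072 in HD against WT. Whether the numbers mark a shared batch was not tested. With the replicate number as a block, the same 3 receptors were called in HD against WT, and 3 in cGAS-KO;HD against cGAS-KO, where Htr2c (0.0374) was gained and Htr1d (0.0642) and Htr6 (0.0503) were lost. Htr5b, with 20 to 198 counts per library, rests on the fewest counts.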
